A study of Mus musculus with 27 samples.

Results

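The 28 genes described here encode enzymes of cholesterol and fatty acid synthesis and 4 proteins that control or carry sterols. They were listed by name, and a listed gene was kept when its counts summed to 10 or more over the 27 libraries. All 28 of 28 passed, as did 22415 of the 50559 genes in the count table. The study cultured organoids from mouse thyroid gland and sequenced their RNA by a method that reads the 3′ ends of transcripts. Some organoids received photons and the others did not. All 9 groups came from C57BL/6 mice with an age label of 8-12 weeks and grew in Matrigel with EGF, FGF2, Y27632 and B27. Irradiation with 2, 4 or 7 Gy was given at day 5. Non-irradiated organoids were collected at days 5, 7 and 11, and irradiated ones at days 7 and 11. Each group has 3 libraries, 1 from each of the cultures mTG11, mTG12 and mTG14, while the design text speaks of 4 mice and the labels number 3. Values of single libraries are given below in that order of cultures, as CPM (counts scaled to a library total of 1000000), and a level is compared only within a gene. A gene is called when its adjusted p, by edgeR with BH over all genes tested, is below 0.05. Where libraries of 2 groups are said not to overlap, the gene was mostly picked for its call and its change. The lack of overlap therefore adds no support to the call, and its share over all genes was not determined.

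Cells build cholesterol from acetyl-CoA through mevalonate and squalene, and palmitate from the same precursor through malonyl-CoA. When sterol in the endoplasmic reticulum falls, SCAP carries the SREBP proteins to the Golgi, where they are cleaved and then drive most of these genes, and INSIG proteins hold SCAP back when sterol is plentiful. Thyroid follicular cells use the same pathway as other cells, and stratified epithelia make much lipid while they mature. An organoid holds epithelium without blood supply or circulating lipoprotein, and its medium sets what lipid is at hand, so levels here cannot be read as those of the gland. Of the thyroid markers, Slc5a5, Tshr and Dio1 were near 0, and Tg was at 4.48, 16.7 and 4.28 CPM at day 5 and at 0.238, 6.17 and 0.55 CPM at day 11. Foxe1 was at 31.8, 20.4 and 34.7 CPM and Nkx2-1 at 11.7, 8.75 and 9.26 CPM at day 7 without irradiation. Some other thyroid genes rose with time: Duoxa2 was at 3.39, 4.24 and 3.86 CPM at day 7 and 154, 106 and 149 CPM at day 11, and of 7 thyroid genes tested 3 were called higher at day 11 (Duoxa2, Duox2 and Nkx2-1) and 0 lower. Keratins of stratified epithelium were abundant, with Krt5 at 4465, 4839 and 4569.8 CPM in the same libraries.

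All 28 members were counted in every library, the lowest single count being 5. Without irradiation their summed level was 3983, 4251 and 4169 CPM at day 5, 4388, 3696 and 4099.9 CPM at day 7 and 1421, 1324 and 1371 CPM at day 11. The 18 enzymes of the cholesterol arm summed to group means of 2348, 2103 and 665 CPM on those days, and the 6 fatty acid genes to 1417, 1538 and 521 CPM. Both arms were thus far lower at day 11 than at day 7. With irradiation, the whole list at day 7 summed to 3270.4, 3819 and 3104 CPM after 2 Gy, 3303, 3305 and 2874 CPM after 4 Gy and 2491, 2817 and 2361 CPM after 7 Gy. For day 11 the 3 cultures gave 1219.8, 1348 and 1107 CPM after 2 Gy, 1832, 1425 and 1631 CPM after 4 Gy and 1980.5, 2108 and 2039.7 CPM after 7 Gy. Every 7 Gy library was therefore below every non-irradiated one at day 7 and above every non-irradiated one at day 11. Scd2, a desaturase, supplies between 17.3% and 29.0% of the members' counts in a library, so the sums lean on that gene.

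**Figure D1:**
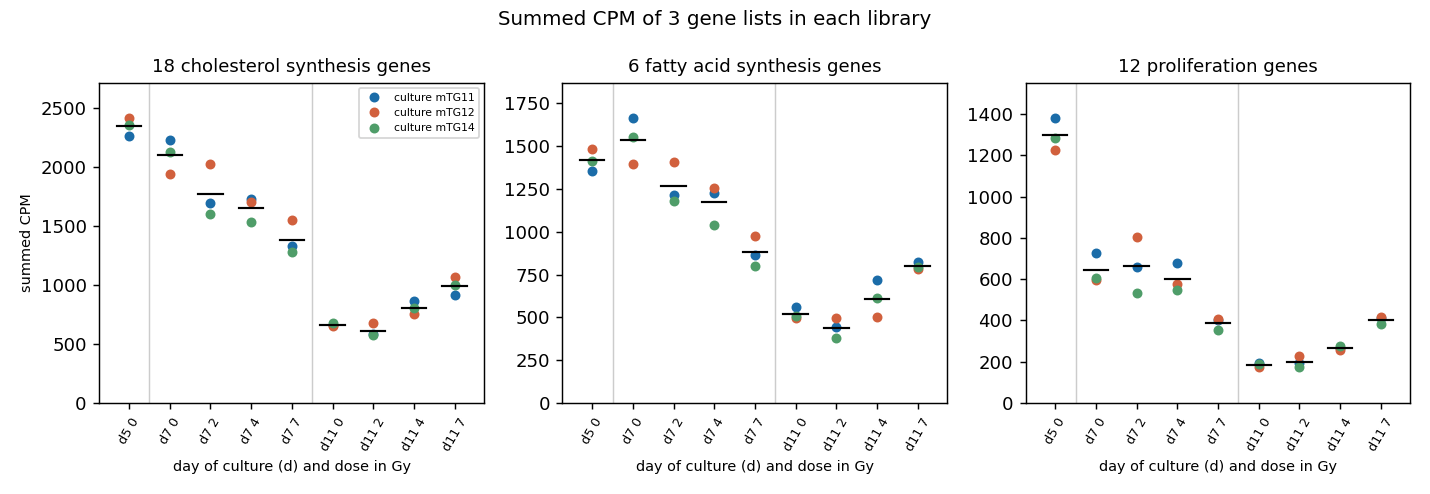
Summed CPM of the 18 cholesterol synthesis genes, the 6 fatty acid synthesis genes and the 12 proliferation genes in each library, by day and dose. Each point is 1 library, the colour gives the culture, and the bar is the group mean.

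Between days 7 and 11 without irradiation, every step of both pathways fell. Of the 28 members 0 were higher and 28 lower at day 11, which is 100% of them lower, where 9.57% of all tested genes were called higher and 11.7% lower. The median log2 fold change of the members was -1.71, and that of all genes 0.00. With all libraries, Tm7sf2, Fdps, Mvk and Cyp51 had the largest changes, and Sc5d, Acaca and Acly the smallest.

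In the mevalonate steps, Acat2, which joins acetyl-CoA units, was at 137, 146 and 136 CPM at day 5, 125, 99.1 and 116 CPM at day 7 and 25.2, 31.0 and 24.5 CPM at day 11, and it fell between days 7 and 11 (log2 fold change -2.08, standard error 0.11, edgeR with BH, adjusted p = 4.04e-07). Hmgcs1, which forms HMG-CoA, went over the same days from 328, 337 and 342 CPM through 304, 270.1 and 294 CPM to 64.8, 74.9 and 78.5 CPM (log2 fold change -1.99, standard error 0.10, edgeR with BH, adjusted p = 2.01e-07). Mvk, which phosphorylates mevalonate, had 85.0, 97.3 and 91.7 CPM at day 5, 69.2, 44.8 and 63.4 CPM at day 7 and 10.8, 13.5 and 8.52 CPM at day 11 (log2 fold change -2.43, standard error 0.18, edgeR with BH, adjusted p = 3.08e-06). For these 3 genes every day 7 library was above every day 11 library. Mvd, which makes isopentenyl diphosphate, fell from 46.6, 40.3 and 54.8 CPM to 9.52, 13.1 and 12.9 CPM (log2 fold change -2.00, standard error 0.16, edgeR with BH, adjusted p = 6.72e-06). Its isomerase gene Idi1 fell from 93.1, 88.8 and 99.7 CPM to 24.8, 22.5 and 25.7 CPM after 136, 136 and 131 CPM at day 5 (log2 fold change -1.95, standard error 0.11, edgeR with BH, adjusted p = 4.04e-07). Fdps, which makes farnesyl diphosphate, was at 209, 217 and 219 CPM at day 5, at 211, 196 and 216 CPM at day 7 and at 35.7, 33.2 and 29.9 CPM at day 11 (log2 fold change -2.66, standard error 0.09, edgeR with BH, adjusted p = 1.91e-08). None of these 3 genes overlaps between days 7 and 11 either. Pmvk, which adds the next phosphate to mevalonate, fell with a log2 fold change of -1.52 over the same interval.

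From squalene onward the direction was the same. Fdft1, the squalene synthase, was at 104, 88.3 and 102 CPM at day 7 and at 32.5, 28.02 and 24.9 CPM at day 11 (log2 fold change -1.79, standard error 0.11, edgeR with BH, adjusted p = 8.45e-07). The epoxidase gene Sqle had a log2 fold change of -1.50 and the cyclase gene Lss one of -1.65, both called lower. Cyp51, which demethylates lanosterol, was at 248, 249 and 259 CPM at day 5, 299, 258 and 249 CPM at day 7 and 64.3, 48.0 and 68.7 CPM at day 11 (log2 fold change -2.15, standard error 0.13, edgeR with BH, adjusted p = 6.10e-07). The sterol reductase gene Tm7sf2 is the least counted member, with 21.9, 10.5 and 14.0 CPM, 29.3, 17.0 and 23.8 CPM and 3.57, 3.49 and 3.44 CPM on days 5, 7 and 11 (log2 fold change -2.74, standard error 0.31, edgeR with BH, adjusted p = 5.98e-05). Libraries of days 7 and 11 do not overlap for Fdft1, Cyp51 or Tm7sf2. Of the genes that remove the later methyl groups, Nsdhl changed by -1.81, Hsd17b7 by -1.78 and Msmo1 by -1.39 on the log2 scale. The last enzymes had smaller log2 fold changes, Ebp -0.84, Sc5d -0.56 and Dhcr7 -0.97, and all 3 were called lower.

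Among the control and transport genes, Stard4, which carries cholesterol between membranes, was at 97.4, 81.6 and 94.2 CPM at day 7 and at 22.1, 27.9 and 24.7 CPM at day 11 (log2 fold change -1.87, standard error 0.11, edgeR with BH, adjusted p = 6.30e-07). Insig1, which holds the SCAP complex in the endoplasmic reticulum, was at 158, 84.9 and 111 CPM and 60.4, 37.9 and 39.0 CPM on those days (log2 fold change -1.36, standard error 0.21, edgeR with BH, adjusted p = 6.10e-04). The day 7 libraries of Insig1 span a wide range, yet each lies above all of day 11. Srebf2, which encodes the SREBP of the sterol genes, had a log2 fold change of -0.91, and Srebf1, which encodes that of the fatty acid genes, one of -0.81. In the fatty acid arm Scd2, a desaturase of long acyl chains, was at 1192, 987 and 1096 CPM at day 7 and at 349.6, 306 and 304 CPM at day 11 (log2 fold change -1.77, standard error 0.09, edgeR with BH, adjusted p = 2.01e-07). Its relative Scd1 fell from 136, 128 and 134 CPM to 42.1, 32.9 and 38.8 CPM (log2 fold change -1.81, standard error 0.13, edgeR with BH, adjusted p = 2.23e-06). Elovl6, which lengthens palmitate, was at 144, 161 and 157 CPM, 93.6, 86.0 and 87.5 CPM and 30.6, 32.0 and 35.8 CPM at days 5, 7 and 11 (log2 fold change -1.44, standard error 0.10, edgeR with BH, adjusted p = 1.48e-06). The genes that build palmitate itself moved less than the desaturases. Fasn, the synthase, changed by -0.89, Acly, which supplies cytosolic acetyl-CoA, by -0.72, and Acaca, which makes malonyl-CoA, by -0.67 on the log2 scale. The Acaca call depends on single libraries: its edgeR adjusted p was 0.0412 with BH, and it was 0.0725 to 0.146 in the 5 of 6 fits without 1 library in which the call was lost, and only the fit without the day 11 0 Gy library of mTG14 kept it. Over these 6 fits the log2 fold change of Acaca ran from -1.02 to -0.48.

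The first 2 days had no common direction. Between days 5 and 7 without irradiation 3 of the 28 members were higher and 5 lower, that is 10.7% and 17.9% of them, where 12.0% of all tested genes were called higher and 9.62% lower. The median log2 fold change was -0.03 over the members and 0.04 over all genes. Insig1 was at 72.7, 64.4 and 69.7 CPM at day 5 and at 158, 84.9 and 111 CPM at day 7 (log2 fold change 0.91, standard error 0.20, edgeR with BH, adjusted p = 0.00729). Scd2 rose from 796, 864 and 808 CPM to 1192, 987 and 1096 CPM (log2 fold change 0.56, standard error 0.09, edgeR with BH, adjusted p = 8.28e-04). Sc5d, a late desaturase of the sterol ring, rose from 125, 138 and 125 CPM to 167, 147 and 151 CPM (log2 fold change 0.41, standard error 0.09, edgeR with BH, adjusted p = 0.0049). In all 3 genes each day 7 library was above each day 5 library. Without TMM factors Sc5d was not called by edgeR with BH (adjusted p = 0.0584), and the members were 2 higher and 7 lower. The 5 lower members were Elovl6 -0.65, Mvk -0.48, Acly -0.45, Idi1 -0.37 and Ebp -0.35 on the log2 scale. Acly, for example, was at 143, 153 and 146 CPM at day 5 and at 102, 86.4 and 104 CPM at day 7, with edgeR and BH at an adjusted p of 0.00805. With the culture as a block edgeR also called Scd1, Tm7sf2 and Srebf2 higher between these days. Ebp, a sterol isomerase, went from 131, 129 and 144 CPM to 103, 86.9 and 96.8 CPM. Mvk, Idi1 and Ebp are the calls that depend on single libraries: their adjusted p by edgeR and BH rose above 0.05 for Mvk (0.0642 without the day 5 library of mTG11, 0.103 without the day 5 library of mTG12, 0.0896 without the day 5 library of mTG14, 0.0941 without the day 7 library of mTG12), Idi1 (0.0528 without the day 5 library of mTG11, 0.0501 without the day 7 library of mTG11, 0.0524 without the day 7 library of mTG12) and Ebp (0.0717 without the day 5 library of mTG14, 0.0565 without the day 7 library of mTG12).

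Over the whole 6 days from day 5 to day 11, 0 members were higher and 26 of 28 lower, or 92.9%, where 21.3% of all tested genes were called higher and 20.1% lower. The medians of the log2 fold changes were -1.66 for the members and 0.06 for all genes. Mvk had the largest change (log2 fold change -2.91, standard error 0.18, edgeR with BH, adjusted p = 2.01e-07), and its libraries of the 2 days do not overlap. Hsd17b7, a reductase of sterol demethylation, was at 82.4, 111 and 82.1 CPM at day 5 and at 16.7, 22.0 and 22.3 CPM at day 11 (log2 fold change -2.03, standard error 0.16, edgeR with BH, adjusted p = 1.33e-06). The other large changes were Fdps -2.56, Idi1 -2.31, Acat2 -2.23, Elovl6 -2.08, Hmgcs1 -2.06 and Tm7sf2 -2.02 on the log2 scale. Not called were Insig1 (log2 fold change -0.44, 95% interval -0.91 to 0.03, but called with the culture as a block) and Sc5d (-0.15, 95% interval -0.33 to 0.04), 2 of the 3 members that had risen by day 7. Srebf1 was called lower with a log2 fold change of -0.58 and an edgeR adjusted p of 0.0126 by BH, but at 0.0723 without the day 5 library of mTG14. The 3 comparisons of days share libraries in pairs, so their counts are not independent of one another.

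At day 7, 2 days after exposure, most members were lower after 7 Gy, fewer after 4 Gy and none by edgeR after 2 Gy. After 7 Gy 0 members were higher and 19 of 28 lower than at 0 Gy, or 67.9%, where 3.20% of all tested genes were called higher and 3.75% lower. Their median log2 fold change was -0.65, against 0.01 over all genes. Scd1, Mvd, Acat2, Pmvk and Scd2 had the largest changes, and Acly, Srebf1 and Acaca the smallest.

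Among the mevalonate genes at day 7, Acat2 was at 125, 99.1 and 116 CPM without irradiation and at 50.5, 63.1 and 54.8 CPM after 7 Gy (log2 fold change -1.02, standard error 0.13, edgeR with BH, adjusted p = 4.59e-04). Pmvk stood at 67.5, 66.3 and 76.9 CPM and 35.3, 39.8 and 33.0 CPM in these groups (log2 fold change -0.97, standard error 0.12, edgeR with BH, adjusted p = 1.93e-04). Mvd fell from 46.6, 40.3 and 54.8 CPM at 0 Gy to 20.8, 25.7 and 22.4 CPM at 7 Gy (log2 fold change -1.05, standard error 0.17, edgeR with BH, adjusted p = 0.00177). None of the 3 genes has a 7 Gy library within the range of 0 Gy. Fdps was at 211, 196 and 216 CPM at 0 Gy, 141, 146 and 127 CPM at 4 Gy and 119, 140.4 and 103 CPM at 7 Gy (log2 fold change -0.79, standard error 0.11, edgeR with BH, adjusted p = 9.07e-04 for 7 Gy). Hmgcs1 and Idi1 were lower as well, with log2 fold changes of -0.70 and -0.66, and Mvk was not called (-0.55, 95% interval -0.93 to -0.17). Of the squalene steps Sqle was at 146, 138 and 148 CPM and, after 7 Gy, at 95.5, 110.2 and 89.1 CPM (log2 fold change -0.56, standard error 0.11, edgeR with BH, adjusted p = 0.00864). Lss fell (-0.69), while Fdft1 was not called (-0.41, 95% interval -0.69 to -0.12) and its 7 Gy libraries overlap those of 0 Gy. In the steps after lanosterol Cyp51 fell from 299, 258 and 249 CPM to 150.1, 172 and 148 CPM (log2 fold change -0.79, standard error 0.11, edgeR with BH, adjusted p = 0.00104), with no overlap between the groups. Also lower were Nsdhl -0.75, Msmo1 -0.37, Sc5d -0.43 and Dhcr7 -0.60 by log2 fold change. Not called in these steps were Tm7sf2 (-0.63, 95% interval -1.07 to -0.20), Ebp (-0.43, 95% interval -0.69 to -0.16) and Hsd17b7 (0.22, 95% interval -0.04 to 0.49). With the culture as a block edgeR also called Mvk, Fdft1, Tm7sf2 and Ebp lower, 23 members in all.

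The control genes Stard4 and Insig1 followed the enzymes at day 7. Stard4 was at 97.4, 81.6 and 94.2 CPM at 0 Gy and at 52.9, 56.3 and 43.1 CPM at 7 Gy (log2 fold change -0.85, standard error 0.11, edgeR with BH, adjusted p = 4.11e-04). For Insig1 the values were 158, 84.9 and 111 CPM and 66.2, 53.6 and 77.3 CPM (log2 fold change -0.85, standard error 0.19, edgeR with BH, adjusted p = 0.0149). Neither gene overlaps between these doses. Srebf2 was lower (log2 fold change -0.42), while Srebf1 was not called (-0.05, 95% interval -0.37 to 0.27). Scd1 had the largest change of the list, from 136, 128 and 134 CPM at 0 Gy to 47.4, 50.2 and 48.2 CPM at 7 Gy (log2 fold change -1.46, standard error 0.10, edgeR with BH, adjusted p = 1.54e-06). Scd2 went from 1192, 987 and 1096 CPM to 559.9, 629.9 and 511 CPM (log2 fold change -0.95, standard error 0.10, edgeR with BH, adjusted p = 7.06e-05), and Elovl6 was lower as well (-0.73). All libraries of 7 Gy lie under those of 0 Gy in Scd1 and Scd2. By contrast the 3 genes that lead to palmitate were not called: Acly (0.01, 95% interval -0.30 to 0.32), Acaca (-0.14, 95% interval -0.50 to 0.22) and Fasn (-0.21, 95% interval -0.59 to 0.16). Of the 19 calls 13 were kept in each of the 6 fits without 1 library, and 6 were lost in some of them, with the BH-adjusted p of edgeR in brackets: Srebf2 without any 1 of 0 Gy mTG11, 0 Gy mTG14, 7 Gy mTG11, 7 Gy mTG12 and 7 Gy mTG14 (0.064 to 0.114), Idi1 without 0 Gy mTG14 (0.0537), Sc5d without 7 Gy mTG14 (0.052), Msmo1 without any 1 of 0 Gy mTG11, 0 Gy mTG12, 0 Gy mTG14, 7 Gy mTG11 and 7 Gy mTG14 (0.0948 to 0.148), Dhcr7 without any 1 of 0 Gy mTG11, 0 Gy mTG14 and 7 Gy mTG11 (0.0631 to 0.0746) and Insig1 without any 1 of 0 Gy mTG11, 7 Gy mTG11 and 7 Gy mTG12 (0.0512 to 0.0661).

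Lower doses gave smaller shifts at day 7. After 4 Gy 0 members were higher and 8 of 28 lower, or 28.6%, where 0.972% of all tested genes were called higher and 0.656% lower. The median log2 fold change was -0.37 over the members and 0.01 over all genes. Scd1 was at 93.9, 80.5 and 71.0 CPM after 4 Gy, below each of its 0 Gy libraries (log2 fold change -0.76, standard error 0.09, edgeR with BH, adjusted p = 9.13e-04). Stard4 was at 58.6, 58.9 and 55.2 CPM (log2 fold change -0.71, standard error 0.11, edgeR with BH, adjusted p = 0.00422) and Scd2 at 781, 827 and 678 CPM, again with no overlap with 0 Gy. Fdps had a log2 fold change of -0.64. The other 4 lower members were Nsdhl -0.53, Cyp51 -0.49, Lss -0.47 and Hmgcs1 -0.46, each with an adjusted p near the threshold. Without TMM factors edgeR called none of these 4, and with only the compared groups fitted it did not call Nsdhl. Nsdhl was at 63.8, 56.7 and 68.7 CPM at 0 Gy and 51.0, 47.1 and 38.0 CPM at 4 Gy, Lss at 76.1, 64.0 and 68.7 CPM and 54.2, 55.5 and 46.7 CPM, and Hmgcs1 at 304, 270.1 and 294 CPM and 234, 224 and 193 CPM. Without any 1 of the 0 Gy libraries of mTG11 and mTG14 or the 4 Gy libraries of mTG11, mTG12 and mTG14 the count was 4 members, and without the 0 Gy library of mTG12 it was 7, of which 6 are among the 8. Hmgcs1 and Cyp51 were lost in all 6 of these fits, with adjusted p by edgeR and BH of 0.0553 and 0.0714 without the 0 Gy library of mTG12. With the culture as a block edgeR also called Mvd, Pmvk and Sc5d. After 2 Gy edgeR called 0 members higher and 0 lower, where 0.119% of all tested genes were called higher and 0.00517% lower. In edgeR 9 members had an unadjusted p below 0.05. That count was 18 without the 0 Gy or the 2 Gy library of mTG12, and 6 without the 0 Gy library of mTG11 or of mTG14. DESeq2 called 1 member lower and edgeR with the culture as a block also 1. The lower member of both is Scd1, at 103, 103 and 97.7 CPM after 2 Gy, with a log2 fold change of -0.42, 95% interval -0.62 to -0.22 in edgeR without the block. The members had a median of -0.24 after 2 Gy and all genes one of 0.00.

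Over all 4 doses at day 7, the slope was called downward for 21 of 28 members and upward for 0, where 3.90% of all tested genes were called higher and 4.72% lower. The median slope was -0.09 log2 units per Gy, beside 0.00 over all genes. Scd1 had a slope of -0.21 and passed through 103, 103 and 97.7 CPM at 2 Gy and 93.9, 80.5 and 71.0 CPM at 4 Gy (edgeR with BH, adjusted p = 1.69e-07). Slopes of the next members were Mvd -0.15, Acat2 -0.14, Pmvk -0.14, Scd2 -0.13, Stard4 -0.13, Insig1 -0.12 and Fdps -0.11. Members without a called slope were Tm7sf2, Fdft1, Fasn, Acaca, Srebf1, Acly and Hsd17b7. With the culture as a block Tm7sf2 and Fdft1 were called as well. For Hsd17b7 the slope was 0.04, 95% interval 0.00 to 0.07. Leaving out 1 library lost the slope of Ebp in 4, Srebf2 in 10, Msmo1 in 5 and Mvk in 10 of 12 fits. The 3 doses share their 0 Gy libraries, so these counts are not separate findings.

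**Figure D2:**
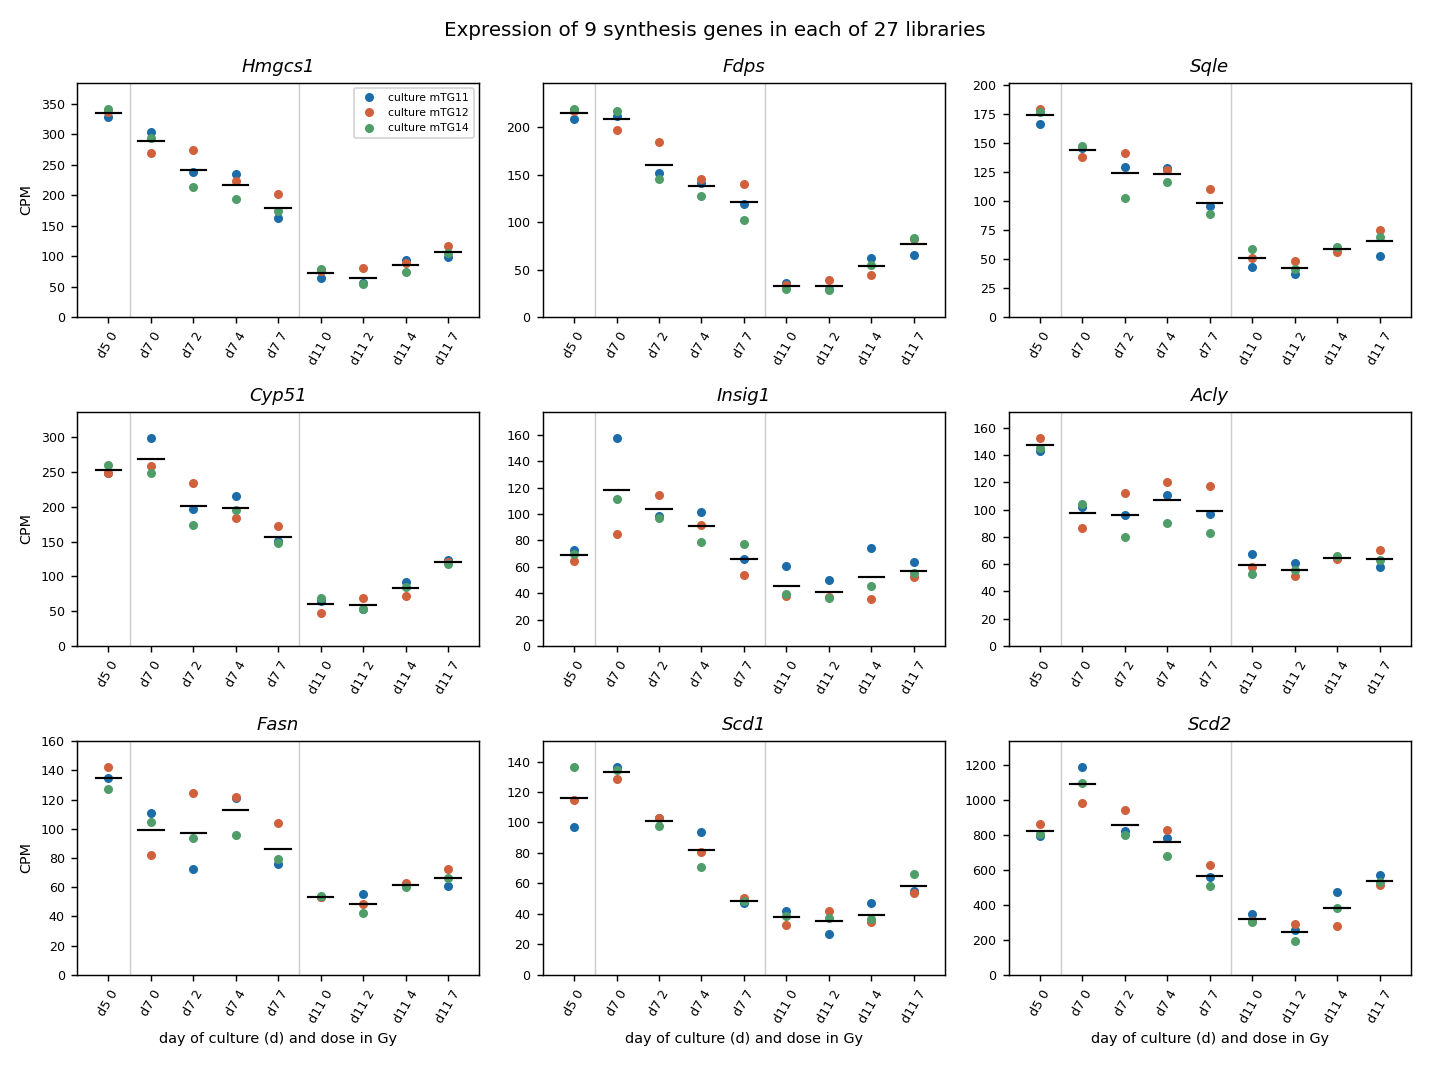
CPM of 9 members from different steps in each of the 27 libraries, by day and dose. Points are coloured by culture and bars are group means.

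At day 11, 6 days after exposure, the direction after 7 Gy was the opposite. Here 7 of 28 members, or 25.0%, were higher than at 0 Gy and 0 lower, where 1.06% of all tested genes were called higher and 0.462% lower. The median log2 fold change was 0.53 over the members and 0.01 over all genes. Without the culture as a block, the 7 members belong to the mevalonate, squalene and lanosterol steps and to sterol transport. With the block edgeR called 14, adding Acat2, Hmgcs1, Idi1, Nsdhl and Sc5d of the sterol arm and Scd2 and Elovl6 of the fatty acid arm. The 7 called without the block were still lower at day 11 after 7 Gy than at day 7 without irradiation in their group means of CPM.

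Fdps was at 35.7, 33.2 and 29.9 CPM at day 11 without irradiation and at 64.8, 82.4 and 83.1 CPM after 7 Gy (log2 fold change 1.18, standard error 0.16, edgeR with BH, adjusted p = 0.0058). Mvk had 10.8, 13.5 and 8.52 CPM and, after 7 Gy, 21.0, 25.2 and 25.8 CPM (log2 fold change 1.08, standard error 0.20, edgeR with BH, adjusted p = 0.0149). Pmvk rose from 27.6, 23.1 and 22.8 CPM to 37.9, 40.1 and 37.4 CPM (log2 fold change 0.61, standard error 0.12, edgeR with BH, adjusted p = 0.0217). All 3 mevalonate genes have each 7 Gy library above each 0 Gy library. Of the squalene genes at day 11, Fdft1 rose from 32.5, 28.02 and 24.9 CPM to 39.4, 46.8 and 47.0 CPM (log2 fold change 0.60, standard error 0.12, edgeR with BH, adjusted p = 0.0208). Lss was at 21.9, 23.3 and 21.3 CPM at 0 Gy and at 30.8, 39.2 and 33.0 CPM at 7 Gy (log2 fold change 0.59, standard error 0.13, edgeR with BH, adjusted p = 0.0424). Cyp51 had 64.3, 48.0 and 68.7 CPM and 123, 120.2 and 118 CPM (log2 fold change 0.96, standard error 0.16, edgeR with BH, adjusted p = 0.0139). Stard4 is the last of the 7, with 22.1, 27.9 and 24.7 CPM at 0 Gy and 36.3, 49.8 and 47.2 CPM at 7 Gy (log2 fold change 0.79, standard error 0.16, edgeR with BH, adjusted p = 0.0286). These 4 genes have no overlap between the doses either. DESeq2 did not call Lss, at an adjusted p of 0.0540 by BH.

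The number of called members after 7 Gy at day 11 depends on single libraries. It was 7 with all libraries, 4 without the 0 Gy library of mTG11, 2 without that of mTG12 or of mTG14, 6 without the 7 Gy library of mTG11, and 3 without that of mTG12 or of mTG14. Only Fdps was called in all 6 of these fits. Members above their non-irradiated level that edgeR did not call without the block include Acat2 (log2 fold change 0.70, 95% interval 0.34 to 1.05), Scd2 (0.72, 95% interval 0.32 to 1.12), Idi1 (0.66, 95% interval 0.26 to 1.05) and Scd1 (0.57, 95% interval 0.19 to 0.96). Scd1 was at 54.9, 53.5 and 66.2 CPM after 7 Gy and at 42.1, 32.9 and 38.8 CPM without irradiation, so its libraries do not overlap. Closest to 0 were Dhcr7 (-0.03, 95% interval -0.45 to 0.40), Ebp (0.06, 95% interval -0.18 to 0.29) and Acly (0.06, 95% interval -0.16 to 0.28). Log2 fold changes of the remaining members, none called without the block, were Hmgcs1 0.52, Mvd 0.47, Sqle 0.32, Tm7sf2 0.62, Msmo1 0.40, Nsdhl 0.57, Hsd17b7 0.53 and Sc5d 0.35 in sterol synthesis, Insig1 0.28, Srebf1 0.27 and Srebf2 0.37 in its control, and Acaca 0.33, Fasn 0.27 and Elovl6 0.53 in the fatty acid arm.

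After 4 Gy at day 11 edgeR called 0 members higher and 0 lower, where 0.00502% of all tested genes were called higher and 0.00% lower. DESeq2 also called 0, and 7 members had an unadjusted p below 0.05 in edgeR. The median log2 fold change was 0.22 over the members and -0.01 over all genes. Fdps was at 61.7, 44.1 and 54.4 CPM after this dose (log2 fold change 0.67, 95% interval 0.32 to 1.02), above each of its 0 Gy libraries. After 2 Gy the counts were 0 higher and 0 lower with edgeR, where 0.00% of all tested genes were called higher and 0.00% lower. DESeq2 gave 0 there too, while 5 members had an unadjusted edgeR p below 0.05. Members had a median of -0.16 after 2 Gy and all genes one of -0.01. Acat2 is an example, at 18.3, 21.9 and 15.7 CPM after 2 Gy (log2 fold change -0.56, 95% interval -0.95 to -0.18).

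The slope over all 4 doses at day 11 was called for 8 of 28 members, or 28.6%, all upward with 0 downward, where 1.73% of all tested genes were called higher and 0.779% lower. The median slope was 0.09 log2 units per Gy over the members and 0.00 over all genes. The 8 slopes were Fdps 0.19, Mvk 0.15, Cyp51 0.15, Stard4 0.13, Pmvk 0.11, Fdft1 0.10, Lss 0.10 and Elovl6 0.08. Elovl6, the only fatty acid gene of these, passed from 30.6, 32.0 and 35.8 CPM at 0 Gy through 51.2, 36.1 and 43.2 CPM at 4 Gy to 54.6, 47.9 and 42.6 CPM at 7 Gy, with an edgeR adjusted p of 0.0408 by BH. The count of called slopes at day 11 was 18 with DESeq2, 18 with the culture as a block, which added Scd1 and Scd2 among others, and 5 without the 7 Gy library of mTG12. Across the 12 fits without 1 library, Lss was lost in 2, Pmvk in 3 and Elovl6 in 6. As at day 7, the doses share their 0 Gy libraries.

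The difference between the responses of the 2 days was tested as the log2 fold change of 7 Gy at day 11 minus that at day 7. A positive value does not need a change of direction, since it also arises where a fall at day 7 is absent at day 11. The difference was called for 19 of 28 members, or 67.9%, all positive with 0 negative, where 2.22% of all tested genes were called higher and 0.807% lower. At day 11 by itself edgeR without the block called 7 members higher, all of them among these 19. The median was 1.27 over the members and 0.02 over all genes. Scd1 had the largest difference (log2 difference 2.06, edgeR with BH, adjusted p = 4.93e-06), although it was not called at day 11 by itself. Fdps came next (2.00, edgeR with BH, adjusted p = 4.99e-06). All 7 genes of the mevalonate steps and all 3 of the squalene steps are among the 19. So are Cyp51, Msmo1, Nsdhl and Sc5d, the control genes Stard4 and Srebf2, and the fatty acid genes Elovl6, Scd1 and Scd2. Not called were Tm7sf2 (1.28, 95% interval 0.48 to 2.09), Insig1 (1.16, 95% interval 0.46 to 1.85), Dhcr7 (0.60, 95% interval 0.10 to 1.11), Ebp (0.52, 95% interval 0.17 to 0.86), Fasn (0.51, 95% interval 0.06 to 0.97), Acaca (0.50, 95% interval -0.17 to 1.17), Srebf1 (0.36, 95% interval -0.11 to 0.83), Hsd17b7 (0.34, 95% interval -0.10 to 0.78) and Acly (0.08, 95% interval -0.30 to 0.47). Of these, Tm7sf2, Insig1 and Ebp were called with the culture as a block. All 19 calls were kept in each of the 12 fits without 1 library. This test reuses the 0 and 7 Gy libraries of the separate days.

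Other genes of sterol and fatty acid metabolism were read beside the members. At day 11 against day 7 without irradiation, some further synthesis genes were lower by edgeR, with log2 fold changes that include Acss2 -1.33, Dbi -1.14, Fads2 -1.09, Acsl3 -0.66, Fads1 -0.43 and Cyb5r3 -0.42. Others were not called, namely Por 0.38, Ggps1 0.30, Acsl1 0.25, Acacb 0.19, Elovl5 0.16, Me1 0.06, Pnpla3 -0.03, Gpam -0.04, Mid1ip1 -0.07 and Lpin1 -0.29. Acss2, which makes acetyl-CoA from acetate, was at 54.7, 44.5 and 61.2 CPM at day 7 and at 21.0, 18.5 and 24.5 CPM at day 11, beside the fall of Acly, the other source of acetyl-CoA described here. Of 8 listed genes of SREBP processing or sterol regulation, Mbtps1 (-0.42) and Tmem97 (-1.10) were lower, as Insig1 was. Of the sterol export and oxysterol response genes, Lpcat3 was lower (-0.75) and Abcg1 higher (1.27). Between days 5 and 7, Lpin1 0.73, Elovl5 0.71, Por 0.83, Acss2 1.02 and Acsl3 0.72 were higher and Fads2 -0.30 and Dbi -0.68 lower. In that interval 7 of 13 tested sterol export and oxysterol response genes were called higher and 0 lower, with a median log2 fold change of 0.53. Of 10 tested fatty acid oxidation genes 3 were called higher and 0 lower, where 12.0% of all tested genes were called higher. After 7 Gy at day 7 the lower genes included Acss2 -0.85, Fads1 -0.78, Elovl5 -0.54, Me1 -0.56, Acsl1 -0.91 and Acsl3 -0.56. Scap, whose protein moves SREBP, was higher (0.44) in that comparison, as was Ch25h (2.77), which hydroxylates cholesterol. Of the fatty acid oxidation genes Acadm was lower (-0.66). At day 11 after 7 Gy edgeR called none of these further synthesis genes, and Abcg1, an exporter of cholesterol, was higher (1.46). In the difference between the days the genes called higher included Acss2, Fads2 and Tmem97, while most of the further genes were not called.

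Proliferation genes moved in the same direction as the synthesis genes in some of these comparisons and not in others. The 12 proliferation genes summed to 1379, 1228 and 1284 CPM at day 5, 728, 597 and 606 CPM at day 7 and 191, 175 and 188 CPM at day 11 without irradiation, with Top2a the most abundant, and all 12 were lower at day 7 than at day 5 and at day 11 than at day 7. After 7 Gy they summed to 401, 406 and 355 CPM at day 7, where 4 of 12 were called lower, and to 413, 416 and 384 CPM at day 11, where 10 of 12 were called higher. Between days 5 and 7 the proliferation genes fell while the members had no common direction. After 4 Gy at day 7, where 8 members were lower, edgeR called 0 of 12 proliferation genes, and their median log2 fold change was -0.03. After 2 Gy their median was 0.15 at day 7 and 0.16 at day 11, where that of the members was -0.24 and -0.16. The proliferation medians were -1.86 for day 11 against day 7 without irradiation, -0.53 after 7 Gy at day 7 and 1.17 after 7 Gy at day 11. Those of the members were -1.71, -0.65 and 0.53 in the same comparisons. After 4 Gy at day 11 both medians were above 0, at 0.41 for the proliferation genes and 0.22 for the members, and edgeR called 0 genes of either list. In the difference between the 7 Gy responses of the 2 days, 12 of 12 were called higher with a median of 1.87, beside 19 of 28 members with a median of 1.27. Of the slopes at day 11, 11 of 12 were called upward, and the lowest of the 12 was 0.06 log2 units per Gy. Whether proliferation has a part in the member results was not tested. The 10 genes of stratified epithelium, Krt5 the most abundant over all libraries, summed to 20999.5, 19496 and 21906 CPM at day 7 and 8828, 10475 and 10571 CPM at day 11, and 9 of 10 were called lower. After 7 Gy at day 11 their sums were 9881, 15078 and 13188 CPM, higher in each culture, with a median log2 fold change of 0.31 and 0 of 10 called by edgeR. Multiciliated genes, Foxj1 the most abundant, summed to 2.61, 5.04 and 0.257 CPM at day 7 and 48.8, 50.7 and 21.7 CPM at day 11 without irradiation, with 6 of 6 higher. After 7 Gy at day 11 they summed to 10.2, 17.7 and 5.73 CPM, with 1 of 6, Foxj1, called lower and a median log2 fold change of -1.81. In the same comparison Duoxa2, the most abundant thyroid gene, was at 83.7, 53.5 and 117 CPM (log2 fold change -0.73, 95% interval -1.28 to -0.19), and edgeR called 0 of 8 thyroid genes tested. Of the adipocyte genes, Plin1, Cidec, Lep and Cfd were at 0 in all libraries. Fabp4 was the most abundant over all libraries together but at 0 in some. The sums were 12.8, 19.6 and 13.9 CPM at day 7 and 7.39, 4.84 and 5.13 CPM at day 11, and of 3 adipocyte genes tested 1 was called higher and 1 lower. Sebocyte genes had Awat1 at 0 and Mgst1 most abundant, with sums of 124, 86.0 and 77.7 CPM at day 7 and 167, 178 and 169 CPM at day 11. These sums are nearly those of Mgst1 alone, with 11009 counts over all libraries, while Fa2h, the next, has 90. Of 3 sebocyte genes tested between these days 1 was called higher and 1 lower, with a median log2 fold change of -1.12. Immune genes, Cd68 the most abundant over all libraries, summed to 30.9, 18.2 and 27.9 CPM at day 7 and 65.5, 38.1 and 42.1 CPM at day 11 without irradiation. Of 2 immune genes tested 1 was called higher (log2 fold change 1.26) and the other was not called (-0.81). Fibroblast genes, Vim the most abundant over all libraries, summed to 29.8, 89.8 and 164 CPM at day 7 and 8.81, 47.2 and 33.0 CPM at day 11. After 7 Gy at day 11 they summed to 25.5, 90.2 and 66.7 CPM, higher in each culture as well, and their median log2 fold change was 1.18. At that day the median was also 1.69 after 2 Gy and 1.60 after 4 Gy, and edgeR called 0 of 10 at each dose. The 11 p53 target genes, Cdkn1a the most abundant, summed to 628, 708 and 674 CPM at day 7 without irradiation. After 7 Gy at day 7 they summed to 1690.1, 1906 and 1447 CPM, and 9 were called higher. By edgeR 0 were called after 7 Gy at day 11. At day 11 without irradiation their sums were 1113, 1138 and 960 CPM, and 8 were called higher than at day 7. In the difference between the 7 Gy responses of the 2 days 9 were called lower. In bulk samples fewer cells of a type and less RNA per cell cannot be told apart, so the part of cell composition in the member values was not tested.

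**Figure D3:**
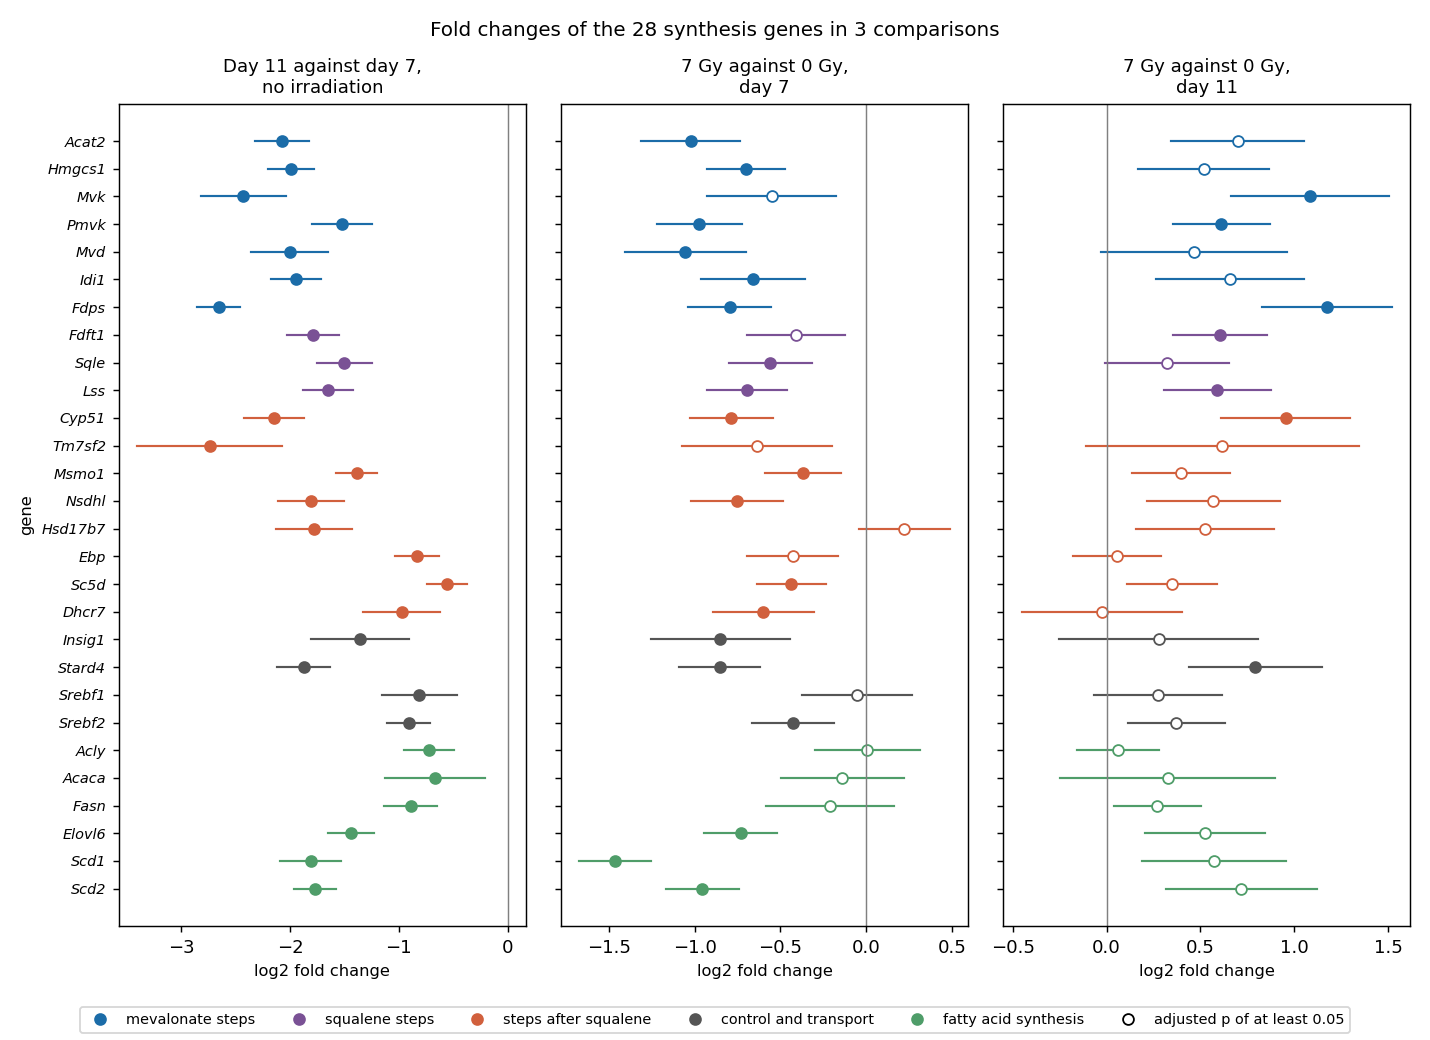
Log2 fold changes of the 28 members with 95% intervals for day 11 against day 7 without irradiation and for 7 Gy against 0 Gy on each day. Colours mark the step of the pathway and filled points are called by edgeR with BH at 0.05.

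Promoters were read from RefSeq on build GRCm38.p6, from 250 bases before to 50 after the annotated start, and 22 of the 28 members had an entry, with 27 promoters in all. Entries were missing for Fdps, Fdft1, Sqle, Stard4, Scd1 and Scd2. The consensus TCACNCCAC of the sterol regulatory element, to which SREBP binds, occurred in 1 of the 27 member promoters (3.70%) and in 408 of all 32851 promoters (1.24%), on either strand. The CCAAT box, bound by NF-Y, occurred in 20 of the 27 (74.1%) and in 12289 of all promoters (37.4%). Hmgcs1 (chr13:119690101-119690400, plus strand) has 1 sterol element and 4 CCAAT boxes, Mvk (chr5:114444019-114444318, plus strand) has 5 CCAAT boxes and Cyp51 (chr5:4104648-4104947, minus strand) has 1. A match describes letters only and shows no binding. Hmgcs1 is shown because it holds the only sterol element found, and Mvk and Cyp51 because both fell with culture time and were higher after 7 Gy at day 11. The sequences follow from 5′ to 3′ on the strand of the gene, with matches to either motif in capitals.
Hmgcs1: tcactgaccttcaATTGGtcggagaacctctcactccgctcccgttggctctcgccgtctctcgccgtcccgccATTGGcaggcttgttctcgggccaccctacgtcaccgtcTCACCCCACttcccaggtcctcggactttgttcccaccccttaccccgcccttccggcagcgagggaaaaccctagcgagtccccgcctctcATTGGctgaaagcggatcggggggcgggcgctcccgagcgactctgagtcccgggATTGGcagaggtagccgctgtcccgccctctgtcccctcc
Mvk: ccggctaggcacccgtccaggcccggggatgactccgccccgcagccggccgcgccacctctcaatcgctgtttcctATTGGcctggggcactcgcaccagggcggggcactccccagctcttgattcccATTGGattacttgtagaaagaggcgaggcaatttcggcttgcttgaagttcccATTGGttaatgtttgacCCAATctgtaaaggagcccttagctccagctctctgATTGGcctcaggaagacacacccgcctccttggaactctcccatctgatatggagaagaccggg
Cyp51: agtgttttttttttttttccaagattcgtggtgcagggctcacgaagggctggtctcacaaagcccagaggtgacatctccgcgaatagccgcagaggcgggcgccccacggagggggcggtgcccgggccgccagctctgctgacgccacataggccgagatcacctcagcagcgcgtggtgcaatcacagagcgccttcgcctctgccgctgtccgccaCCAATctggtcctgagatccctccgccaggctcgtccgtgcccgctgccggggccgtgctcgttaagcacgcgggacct

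Each member was also placed on the GENCODE annotation, where 28 of 28 names matched. Another gene, in each case on the opposite strand, lies over the 3′ end of 10, the part these libraries read: Acat2, Hmgcs1, Fdft1, Sqle, Lss, Cyp51, Ebp, Insig1, Srebf1 and Srebf2. The other 18 members had 18 lower at day 11 against day 7 without irradiation, 12 lower after 7 Gy at day 7 and 4 higher after 7 Gy at day 11. In a separate subset, the 8 members that have only whole-number counts, 8, 7 and 3 were called in the same 3 comparisons. Both subsets were chosen after the data were seen.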

How the data were processed

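The authors deposited estimated counts per gene symbol, with 56.3% of nonzero values whole, aligned per the submitters to GRCm39 with STAR. The planned analysis had assumed counts, so values were rounded for the tests. Library totals ran from 2528866 to 5723150. Tests used edgeR 4.0.16 in R 4.3.3 (quasi-likelihood, TMM, genes with at least 10 counts over the libraries of the fit, BH at 0.05 over all genes tested), DESeq2 1.42.0 as the alternative, and Python 3.11.15. Day comparisons used the 9 libraries at 0 Gy, dose comparisons the 12 of a day, and the difference between days all 24. Alternatives changed the tool, normalization, filter, culture block, groups fitted and single libraries. Libraries of 1 culture pair: over 13158 genes residuals of the same culture correlated at 0.208, 0.278, 0.344 and 0.290 in the 4 fits, against -0.104, -0.139, -0.172 and -0.145 between cultures, the lowest same-culture value being 0.115. Cultures could not be matched to mouse numbers. Library values are given for up to 8 called members with the largest change per comparison and for further members of each step. Members and lists were chosen with earlier results of these data known.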

Additional observations from a re-analysis of the deposited data

Results flagged for a closer look

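The response to 7 Gy differs between days 7 and 11 for 19 members, as the log2 fold change at day 11 minus that at day 7 in edgeR with BH below 0.05 over all tested genes. The differences are Scd1 2.06, Fdps 2.00, Cyp51 1.77, Acat2 1.75, Scd2 1.70, Stard4 1.68, Mvk 1.66, Pmvk 1.61, Mvd 1.55, Nsdhl 1.35, Idi1 1.35, Lss 1.32, Elovl6 1.29, Hmgcs1 1.25, Fdft1 1.04, Sqle 0.91, Srebf2 0.83, Sc5d 0.81 and Msmo1 0.80. All 19 are positive. What lies behind the difference was not tested.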

How the results depend on the processing

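Counts of called members were compared over the planned settings, and most were within 1.5 times the reported value. After 2 Gy at day 7 the count of 0 became 1 with DESeq2, 4 when all genes with at least 1 count were kept, and 1 with the replicate block of culture. After 4 Gy at day 7 the count of 8 became 4 without TMM factors and 13 with all genes with at least 1 count, and it was 4 to 7 when each library was left out in turn. After 4 Gy at day 11 it became 1 with all genes with at least 1 count. After 7 Gy at day 11 the count of 7 became 16 with all genes with at least 1 count and 14 with the replicate block, and it was 2 to 6 without single libraries. The count of 8 slopes at day 11 became 18 with DESeq2, 14 without TMM factors, 17 with all genes with at least 1 count, 15 with filterByExpr and 18 with the replicate block, and it was 5 to 12 without single libraries.

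Other counts kept within these ranges without single libraries: 7 to 8 from day 5 to 7, 27 to 28 from day 7 to 11, 25 to 27 from day 5 to 11, 15 to 20 after 7 Gy at day 7, 17 to 21 for the slopes at day 7 and 19 to 21 for the difference between the days. From day 5 to 7 the split by direction moved more than the total. The 3 higher and 5 lower became 5 higher and 2 lower without the day 7 library of mTG12. They became 4 higher and 3 lower without the day 5 library of mTG11 or of mTG14. Where a group is left with 2 libraries its spread is taken from all groups of the fit. The replicate block of culture lost no call in any comparison. Without TMM factors the median log2 fold change of the members was -0.17 for day 7 against day 5 and -1.80 for day 11 against day 5, while the median over all genes went from 0.04 to -0.11 and from 0.06 to -0.08. For the at most 8 called members with the largest change in each comparison, 474 of 481 values kept their call when the tool, normalization, filter, culture block or groups fitted changed, 7 were no longer called and 0 changed sign. Fits without single libraries are not among the 481. Over all called members, at least 1 such fit lost 4 of 8 calls after 4 Gy at day 7, 6 of 19 after 7 Gy at day 7, 6 of 7 after 7 Gy at day 11, 3 of 8 from day 5 to 7, 4 of 21 slopes at day 7 and 3 of 8 slopes at day 11, 1 call each from day 7 to 11 and from day 5 to 11, and 0 of 19 in the difference between the days. Other calls lost by edgeR with BH were Msmo1 after 7 Gy at day 7 (adjusted p = 0.0719) and the day 7 slopes of Srebf2 (0.0532) and Mvk (0.0692) without TMM factors, and Acaca from day 7 to 11 (0.0692) with only the compared groups.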

Other observations

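Each group has 3 libraries, and the 3 cultures recur in all groups, so the values speak for these cultures. Libraries read 3′ ends and give RNA levels, and sterol content, protein and enzyme activity were not measured. Levels are relative to the library total.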
